A study of Mus musculus with 15 samples.

Results

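The genes described here are the 6 nuclear receptors for vitamin A derivatives, the retinoic acid receptors Rara, Rarb and Rarg and the retinoid X receptors Rxra, Rxrb and Rxrg. They were chosen by name, and every probe set that carries 1 of these names in the array annotation was taken, which gave 9 of 45037 probe sets and 6 of 18193 genes. Rarg has a second probe set and Rxra has 2 further ones. For the comparison of genes, the probe set with the highest mean signal stood for its gene.

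Newborn mice (postnatal day 1) gave the pituitary RNA. It was pooled within a genotype, and 15 pools were each hybridised to 1 Affymetrix Mouse Genome 430 2.0 array. The groups of 5 pools were Pit1+/+ and Pit1dw/dw, both on the DW/J strain background, and Prop1df/df on the DF/B background. The dw allele is the Snell dwarf allele of Pit1, a POU homeodomain factor required for the cells that make growth hormone, prolactin and thyrotropin. All mice were fed a high fat chow, and all pools are whole pituitary tissue, so in these values fewer cells of a type and less RNA per cell cannot be told apart. The Prop1df/df group differs from the other groups in strain as well as genotype, which cannot be told apart here, since no unaffected pools on the DF/B background were analysed here. The number of pituitaries in a pool and the sex of the mice were not stated in the sources used, so p-values measure the spread between pools.

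The values are log2 RMA signals, and a difference of 1 is a 2-fold change. Their overall median was 4.37, and array medians ran from 4.31 to 4.43. Pit1 itself was not analysed here, so the samples were checked on Gh (growth hormone) and Tshb (the thyrotropin beta subunit). Gh lay between 14.15 and 14.28 in Pit1+/+ and between 7.15 and 10.31 in Pit1dw/dw. In Prop1df/df it was 13.58, 14.07, 14.03, 8.99 and 10.24 in pools 1 to 5, so that pools 1 to 3 stood apart from pools 4 and 5. Tshb lay between 11.67 and 12.29 in Pit1+/+ and between 6.20 and 7.01 in Pit1dw/dw, and was 9.83, 9.89, 9.68, 6.28 and 7.17 in Prop1df/df. Prph (peripherin, an intermediate filament of peripheral neurons) was above 7 in 5 pools: Pit1+/+ pool 3, Pit1dw/dw pools 2 and 3, and Prop1df/df pools 3 and 4. Pit1+/+ pool 1 carries a genotype entry of Prop1df/df, against its title, source and strain. Its Tshb was 11.91, near the other pools of its title, and results are also given without it.

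Retinoic acid receptors bind retinoic acid and act on DNA as heterodimers with a retinoid X receptor. Their response elements are repeats of a hexamer related to AGGTCA. Retinoid X receptors are also the shared partner of the vitamin D, thyroid hormone and peroxisome proliferator receptors, among others. Rarb is itself a retinoic acid target through such an element in its promoter, and Rxrg is the isotype known from thyrotrophs, where ligands of retinoid X receptors lower thyrotropin production.

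Rxrg and Rarb are shown by the 250 bases before their annotated starts, because Rxrg is the member whose level differed between the groups and Rarb carries the textbook element. The sequences are from RefSeq on build GRCm38.p6, read 5′ to 3′ on the gene's strand, and capitals mark the matches to the patterns searched, which in Rarb include the 5 spacer bases of the repeat. The windows are chr1:167598112-167598361 (plus strand) and chr1:167618015-167618264 (plus strand) for the first and the second start of Rxrg, and chr14:16575477-16575726 (minus strand) for Rarb.
Rxrg start 1: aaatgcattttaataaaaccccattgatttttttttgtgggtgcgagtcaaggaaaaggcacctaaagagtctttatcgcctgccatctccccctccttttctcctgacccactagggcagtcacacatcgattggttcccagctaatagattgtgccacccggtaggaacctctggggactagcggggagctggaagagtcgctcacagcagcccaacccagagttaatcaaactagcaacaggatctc
Rxrg start 2: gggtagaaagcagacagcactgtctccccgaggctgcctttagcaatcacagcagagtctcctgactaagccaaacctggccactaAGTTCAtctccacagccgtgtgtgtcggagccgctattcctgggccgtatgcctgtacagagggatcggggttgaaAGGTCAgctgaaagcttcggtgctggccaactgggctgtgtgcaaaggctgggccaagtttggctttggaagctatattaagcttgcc
Rarb: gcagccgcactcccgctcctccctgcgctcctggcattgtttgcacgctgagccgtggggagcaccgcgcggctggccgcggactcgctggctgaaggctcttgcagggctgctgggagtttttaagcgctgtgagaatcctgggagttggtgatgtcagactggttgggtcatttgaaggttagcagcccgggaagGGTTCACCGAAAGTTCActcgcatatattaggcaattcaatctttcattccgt

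The window of Rarb holds the direct repeat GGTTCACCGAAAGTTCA from 53 to 37 bases before the start. The pattern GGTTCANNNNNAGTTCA, searched on both strands, was in 2 of 32536 windows of this length (0.00615%). The hexamer AGTTCA, which is part of that pattern, was in 11.8% of windows and AGGTCA in 14%. Both were in the second window of Rxrg, AGTTCA from 164 to 159 and AGGTCA from 88 to 83 bases before the start. AGGTCA was also in a window of Rxra and in a window of Rarg. Neither window of Rxrg held TATNCAT, a core of Pit1 sites that 7.81% of windows hold, while a window of Rarg did. A match is a description of letters, and none says anything of binding in these cells. The windows of Rxrg held 49.2% and 55.2% G and C with 6 and 7 CpG, where the median window held 52.4%. Those of Rxrb held 69.2% and 82.4% with 31 and 39 CpG, and those of Rxra 81.2% and 55.2% with 40 and 1.

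Of the 6 receptor genes, Rxrg alone passed the test in either mutant against Pit1+/+, and it fell in both. The other 5 genes did not pass. In limma with Benjamini-Hochberg adjustment over all 18193 genes, 0.77% of genes passed at an adjusted p below 0.05 in Pit1dw/dw against Pit1+/+, and 0.605% passed and were lower. The corresponding shares in Prop1df/df against Pit1+/+ were 10.6% and 7.31%. The median change of the 6 genes was 0.04 in Pit1dw/dw and 0.12 in Prop1df/df, where the medians over all genes were -0.02 and -0.04. Between the mutants it was 0.11, against -0.02 over all genes.

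**Figure D1:**
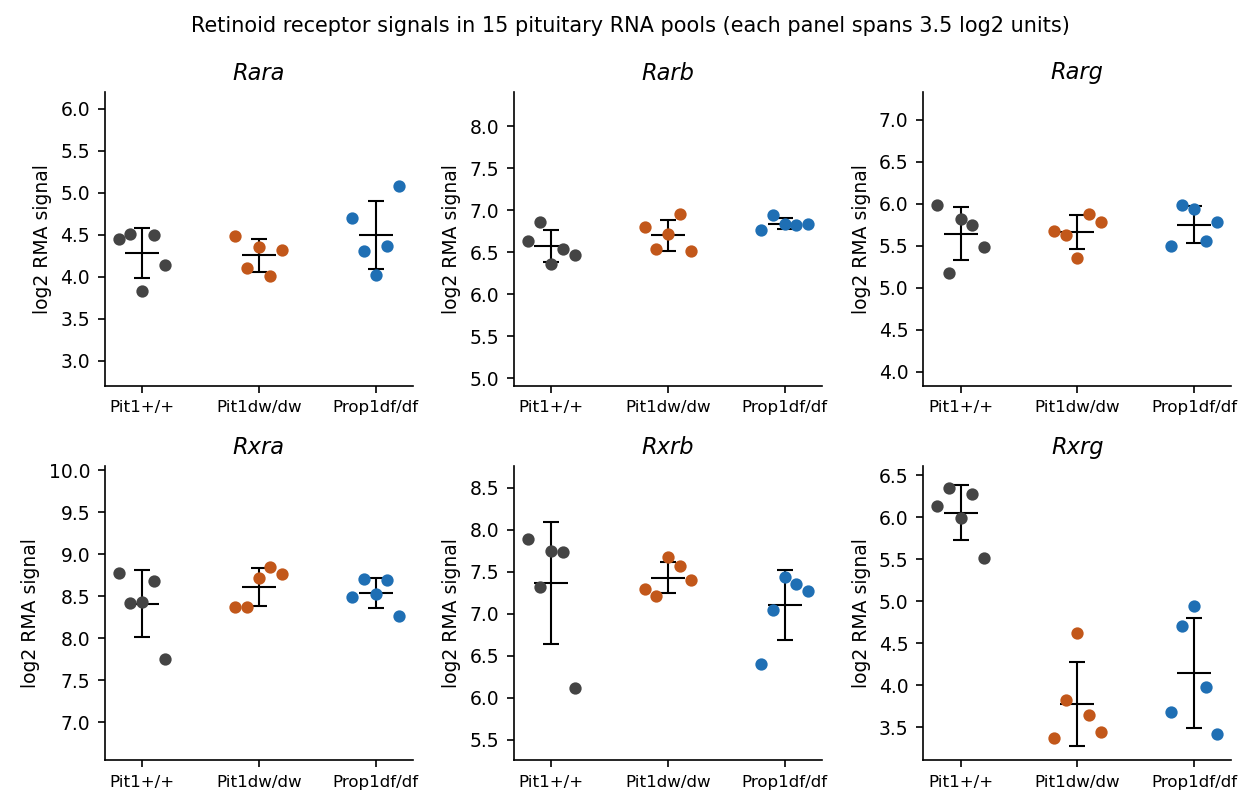
Log2 RMA signal of the 6 retinoid receptor genes (vertical axes) in the 5 pools of each genotype. Points are pools, bars are the mean and SD, and every panel spans the same number of log2 units at its own level. The Pit1+/+ points of Rxrg, lowest 5.52, lie above all mutant points, highest 4.94, while the groups of the other 5 genes overlap.

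Rxrg (probe set 1418782_at, a gene on chromosome 1) was at 6.13, 6.34, 5.99, 6.27 and 5.52 in Pit1+/+ pools 1 to 5. It was at 3.37, 3.82, 4.62, 3.64 and 3.44 in the Pit1dw/dw pools. In the Prop1df/df pools it was at 3.68, 4.70, 4.94, 3.98 and 3.42. The mutant pools lay below all Pit1+/+ pools in both mutants, a pattern that 1.91% of all genes showed in Pit1dw/dw and 5.45% in Prop1df/df. Of the 10 mutant pools, 7 were below the overall median of the arrays.

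The group means of Rxrg were 6.05 ± 0.33 in Pit1+/+, 4.14 ± 0.65 in Prop1df/df and 3.78 ± 0.50 in Pit1dw/dw (SD, n = 5 pools each). In Pit1dw/dw it was 4.83-fold lower, a log2 change of -2.27 (SE 0.29, 95% interval -2.90 to -1.65, limma adjusted p = 0.000947). By size this was the 8th largest fall among all genes. In Prop1df/df it was 3.76-fold lower, a log2 change of -1.91 (SE 0.29, interval -2.53 to -1.29, limma adjusted p = 0.000556), the 39th largest fall. Both comparisons share the Pit1+/+ pools. The mutants were neighbours in the order of levels and their ranges overlapped. Prop1df/df minus Pit1dw/dw was 0.36 (SE 0.29, interval -0.26 to 0.99, limma adjusted p = 0.527), in a comparison where 6.26% of genes passed.

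Within Prop1df/df, the pools high in Gh included the 2 with the highest Rxrg, pools 2 and 3, and also pool 1 with 3.68. Without the pools above 12 in Gh, the change of Rxrg in Prop1df/df was -2.35 (limma adjusted p = 0.000965) and the difference between the mutants was -0.08. This cut was chosen after seeing the data and leaves Prop1df/df pools 4 and 5. It takes out the 2 highest Rxrg values of the group, so a larger fall could be foreseen. Without Pit1+/+ pool 1 the changes were -2.25 (limma adjusted p = 0.00366) in Pit1dw/dw and -1.89 (0.00203) in Prop1df/df. Without the 5 pools above 7 in Prph they were -2.58 and -2.14 (0.00302 and 0.00165). Rxrg passed in each of these.

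The highest Pit1dw/dw value of Rxrg, 4.62 in pool 3, was in a pool high in Prph (9.89), and the highest Prop1df/df value, 4.94 in pool 3, was too (10.46). Over the 15 pools, the deviations of Rxrg and Prph from their group means had a Pearson r of 0.50. The sensory ganglion and Schwann cell list had 7 of 10 genes measured, and 0 passed in any of the 3 comparisons, where 0.77%, 10.6% and 6.26% of all genes passed. The mean level of this list ran from 4.75 to 9.96 in Pit1+/+, from 5.34 to 9.24 in Pit1dw/dw and from 4.92 to 9.64 in Prop1df/df. With the means of this list and of a bone and cartilage list as covariates, the changes of Rxrg were -2.39 and -1.87 (limma adjusted p = 0.00036 and 0.00267). The skeletal muscle list, of a tissue where Rxrg is also known, had mean levels between 3.14 and 3.98 in all pools, below the overall median.

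Xist, a transcript of female cells, was below 5 in Pit1+/+ pool 4 and Pit1dw/dw pools 2 and 3 (3.69, 4.20 and 3.89), and the deviations of Rxrg had a Pearson r of -0.54 with it. With Xist as a covariate, Rxrg changed by -2.43 and -1.85 (limma adjusted p = 0.000533 and 0.000419). The deviations of Rxrg also had an r of 0.41 with the difference between 3′ and 5′ Gapdh control signals and of -0.62 with the array median. With the Gapdh difference as a covariate the changes were -2.13 and -1.72, and both passed.

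**Figure D2:**
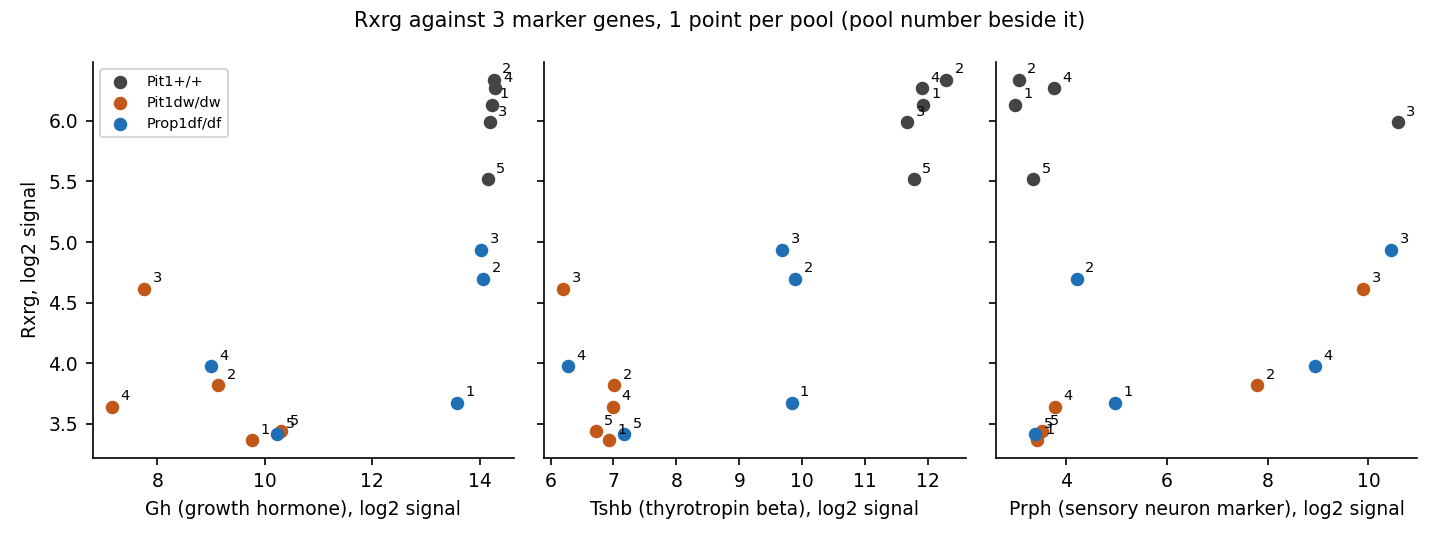
Log2 signal of Rxrg (vertical axis) against Gh, Tshb and Prph (horizontal axes) in the 15 pools, coloured by genotype and numbered by pool. The Pit1+/+ pools are the highest in all panels on the vertical axis, and Prop1df/df pool 1 has Gh at 13.58 and Tshb at 9.83 with Rxrg at 3.68.

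Of 6 listed thyrotroph genes, 3 fell in Pit1dw/dw and 5 fell in Prop1df/df, where 0.605% and 7.31% of all genes fell. Thrb, the dim sixth gene, changed by 0.07 and 0.12 and did not pass. Other lists held genes that fell too. Of 6 measured genes of the Pit1 lineage, which shares Tshb and Trhr with the thyrotroph list, 5 fell in Pit1dw/dw and 4 in Prop1df/df, with median changes of -4.06 and -2.42. In Prop1df/df, both measured melanotroph genes and 3 of 6 gonadotroph genes also fell. The gonadotroph list shares Gata2 with the thyrotroph list. In Pit1dw/dw, 3 of 6 gonadotroph genes rose, where 0.165% of all genes rose. Tshb fell by 5.13 in Pit1dw/dw (limma adjusted p = 0.000244) and by 3.34 in Prop1df/df (0.00133) on the log2 scale. Trhr, the receptor for thyrotropin-releasing hormone, changed by -3.17 and -2.79. Over all 15 pools the Pearson r of Rxrg was 0.92 with Trhr, 0.87 with Tshb and 0.72 with Gh. The pools share the genotype differences, and the r of deviations from the group means was 0.38, 0.33 and 0.24. These are descriptions with no test.

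**Figure D3:**
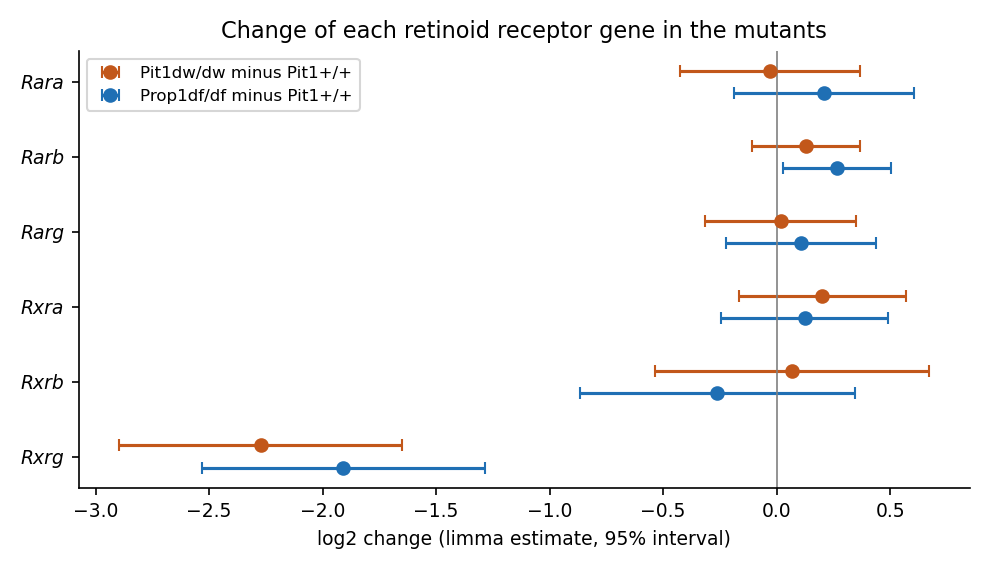
Log2 change of each retinoid receptor gene (horizontal axis, limma estimate with 95% interval) in Pit1dw/dw and in Prop1df/df against Pit1+/+. Rxrg is at -2.27 and -1.91, and the intervals of the other 5 genes reach no lower than -0.87.

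The other retinoid X receptors did not pass. Rxra (1454773_at, chromosome 2), the isotype found in most tissues, was at 8.77, 8.42, 8.43, 8.68 and 7.75 in Pit1+/+, at 8.37, 8.36, 8.71, 8.84 and 8.76 in Pit1dw/dw, and at 8.49, 8.70, 8.52, 8.69 and 8.26 in Prop1df/df. The groups overlapped, and Pit1+/+ pool 5 was the lowest. The changes were 0.20 (interval -0.17 to 0.57, limma adjusted p = 0.858) in Pit1dw/dw and 0.12 (interval -0.25 to 0.49, 0.717) in Prop1df/df. A fall of Rxra as large as that of Rxrg lies outside both intervals.

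Rxrb (1416990_at, chromosome 17), also widely expressed, was at 7.89, 7.32, 7.74, 7.73 and 6.12 in Pit1+/+, at 7.30, 7.21, 7.67, 7.56 and 7.40 in Pit1dw/dw, and at 6.41, 7.05, 7.43, 7.36 and 7.27 in Prop1df/df. Pit1+/+ pool 5 and Prop1df/df pool 1 were low. The changes were 0.07 (interval -0.54 to 0.67, limma adjusted p = 0.987) and -0.26 (interval -0.87 to 0.34, 0.622). With array weights the change in Prop1df/df was -0.58 and passed (limma adjusted p = 0.0387). The deviations of Rxrb from its group means had a Pearson r of 0.65 with the difference between 3′ and 5′ Gapdh control signals, which ran from 1.75 to 2.97 over the arrays, and of -0.70 with the array median. With that Gapdh difference as a covariate, the changes of Rxrb were 0.29 in Pit1dw/dw and 0.03 in Prop1df/df (limma adjusted p = 0.731 and 0.968). Without Pit1+/+ pool 5 they were -0.24 and -0.57 (0.715 and 0.0512), and without Prop1df/df pool 1 the change in Prop1df/df was -0.09 (0.910). The direction of the Rxrb change was therefore not settled.

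Among the retinoic acid receptors, Rara (1450180_a_at, chromosome 11) was at 4.45, 4.51, 3.83, 4.50 and 4.14 in Pit1+/+, at 4.49, 4.10, 4.35, 4.01 and 4.32 in Pit1dw/dw, and at 4.70, 4.31, 4.03, 4.37 and 5.08 in Prop1df/df. It was below the overall median on 9 arrays, and the groups overlapped. Its changes were -0.03 (interval -0.43 to 0.37, limma adjusted p = 0.990) and 0.21 (interval -0.19 to 0.61, 0.533).

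Rarb (1454906_at, chromosome 14), known for its induction by retinoic acid, was at 6.64, 6.86, 6.36, 6.54 and 6.47 in Pit1+/+, at 6.79, 6.54, 6.71, 6.96 and 6.51 in Pit1dw/dw, and at 6.77, 6.94, 6.83, 6.82 and 6.83 in Prop1df/df. The Prop1df/df pools lay close together (SD 0.06) near the top of the Pit1+/+ range. The changes were 0.13 (interval -0.11 to 0.37, limma adjusted p = 0.862) and 0.27 (interval 0.03 to 0.50, 0.150). With the means of the ganglion and bone lists as covariates, the change in Prop1df/df was 0.43 and passed (limma adjusted p = 0.0398). The pattern of the element in its window, shown above, is made of the hexamers of Rarb itself, and it matched no other of the 13 windows of the 6 genes.

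Rarg (1419415_a_at, chromosome 15), a receptor known from skin and cartilage, was at 5.99, 5.18, 5.83, 5.75 and 5.49 in Pit1+/+, at 5.67, 5.63, 5.36, 5.88 and 5.79 in Pit1dw/dw, and at 5.49, 5.99, 5.93, 5.56 and 5.79 in Prop1df/df. The groups overlapped. The changes were 0.02 (interval -0.31 to 0.35, limma adjusted p = 0.993) and 0.11 (interval -0.22 to 0.44, 0.727).

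Between the mutants, Rara differed by 0.24, Rarb by 0.14, Rarg by 0.09, Rxra by -0.08 and Rxrb by -0.33, and none passed (limma adjusted p from 0.507 to 0.847). The 3 further probe sets of Rarg and Rxra were between 2.60 and 3.54 on all arrays, where the lower quartile of an array was between 3.05 and 3.25, and were below the overall median on 15 arrays. They carry little signal, and 0 of the 3 passed in any comparison fitted over all probe sets, where 0.371%, 7.44% and 5% passed.

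The change of Rxrg was then compared with that of each other receptor gene within the same pools, by exact two-sided permutation of the group labels with adjustment over 15 tests. In Pit1dw/dw against Pit1+/+, the change of Rxrg minus that of Rara was -2.24 log2 units. The differences were -2.40 against Rarb, -2.29 against Rarg, -2.47 against Rxra and -2.34 against Rxrb. In Prop1df/df they were -2.12 against Rara, -2.18 against Rarb, -2.02 against Rarg, -2.03 against Rxra and -1.65 against Rxrb. All 10 had p = 0.00794 by exact permutation, the smallest this design can give, and 0.0119 after adjustment. Between the mutants the differences ran from 0.12 (Rara) to 0.69 (Rxrb), and the smallest exact permutation p was 0.0714 (adjusted 0.0974).

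These tests have limits. The 10 differences against Pit1+/+ all use the same Rxrg values of a mutant and the same Pit1+/+ pools. They are therefore not separate results. Rxrg was already known to fall without overlap of the groups, and the other receptor genes had not passed. A p at the smallest value could therefore be foreseen, and these tests add the size of the differences, not separate support. With labels flipped only within pairs of 1 pool number, the exact permutation p cannot go below 0.0625, and all 10 differences then had an adjusted p of 0.0781. Without Prop1df/df pool 5, the difference of Rxrg and Rxrb between the mutants was 0.91 (exact permutation, adjusted p = 0.0433).

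Among the nuclear receptors that pair with retinoid X receptors, 12 of 13 listed genes were measured and 1 fell in each mutant. Of all genes, 0.605% fell in Pit1dw/dw and 7.31% in Prop1df/df, so the count in Prop1df/df is near the share of all genes. The gene that fell in Pit1dw/dw was Vdr, the vitamin D receptor. Vdr was at 7.58, 7.09, 6.57, 8.15 and 7.64 in Pit1+/+, at 5.03, 4.61, 4.76, 4.81 and 6.62 in Pit1dw/dw, and at 6.89, 5.89, 7.06, 5.82 and 6.98 in Prop1df/df. Vdr changed by -2.24 in Pit1dw/dw (SE 0.39, limma adjusted p = 0.0095) and by -0.88 in Prop1df/df (0.175), which did not pass. Pit1dw/dw pool 5 was apart from the other pools of its group and lay above the lowest Pit1+/+ value. Its bone and cartilage list mean was 7.83, against 5.32 to 6.12 in the other 4, and the part of that alone in the Vdr value was not tested. Without the pools above 7 in Prph the change was -2.13 and did not pass (limma adjusted p = 0.0925). With the ganglion and bone means together as covariates, Vdr kept its call in Pit1dw/dw. The change in Prop1df/df was then -1.55 and passed (limma adjusted p = 0.00392).

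Nr4a2, an orphan receptor known from midbrain dopamine neurons, fell by 0.60 on the log2 scale in Prop1df/df (limma adjusted p = 0.0358). The call ended in 12 of 25 alternatives, among them leaving out Pit1+/+ pool 2 or 3 or Prop1df/df pool 1, 2, 3 or 4 (changes from -0.62 to -0.50). Thra, the alpha thyroid hormone receptor, changed by 0.22 and -0.16 and did not pass. Thrb, the beta thyroid hormone receptor, has 1 probe set, which was dim in every pool (group means 2.88 to 3.00). Nr1h3, Nr1h4, Nr1i2 and Nr1i3 of the same list were also below the overall median in every pool, so they carry little signal. The median change of the list was -0.10 in Pit1dw/dw and -0.14 in Prop1df/df.

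Of 13 listed receptor coregulators, 11 were measured. In Pit1dw/dw 0 passed, where 0.77% of all genes passed, and in Prop1df/df 1 fell, where 7.31% of all genes fell. Both counts are near those shares. The gene that fell was Ncoa1, a steroid receptor coactivator, with a change of -0.45 (limma adjusted p = 0.0137), a call that ended in 5 of 25 alternatives. With the mean of its 3 probe sets the change was -0.04 (limma adjusted p = 0.900), so its probe sets differ. The list's median changes were -0.02 and -0.09.

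Of 16 listed genes that make, bind or clear retinoic acid, 14 were measured, and 0 passed in Pit1dw/dw, where 0.77% of all genes passed. In Prop1df/df 2 rose and 2 fell, where 3.25% of all genes rose and 7.31% fell. Aldh1a2, which oxidises retinaldehyde to retinoic acid, had means of 8.55 ± 0.39 in Pit1+/+ and 9.05 ± 0.21 in Pit1dw/dw (SD, n = 5 pools each), and was at 5.67, 6.86, 7.04, 6.74 and 6.01 in Prop1df/df. It fell by 2.08 on the log2 scale in Prop1df/df (limma adjusted p = 6.249e-05), and all 5 pools lay below the other groups. Rbp4, the plasma retinol carrier, fell by 1.23 (limma adjusted p = 0.00089).

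Crabp1, a cytosolic retinoic acid binder, was between 2.84 and 4.85 in Pit1+/+, between 3.00 and 5.31 in Pit1dw/dw, and at 6.13, 6.45, 6.88, 7.80 and 6.94 in Prop1df/df, a rise of 2.97 (limma adjusted p = 0.000641). Aldh1a3, another retinaldehyde dehydrogenase, rose by 0.75 (limma adjusted p = 0.028) from a dim level, and its call ended in 5 of 25 alternatives, among them leaving out Pit1+/+ pool 4 (0.70) and the covariates of the next sentences (0.72). The mean of the bone and cartilage list was 6.79 to 8.92 in Prop1df/df, 5.32 to 7.83 in Pit1dw/dw and 4.30 to 7.71 in Pit1+/+. Of its 5 measured genes, 1 rose in Prop1df/df, where 3.25% of all genes rose. The part of this list in these changes was not tested, except that with the covariates Aldh1a2, Rbp4 and Crabp1 kept their calls.

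Of 14 listed retinoic acid target genes, 12 were measured and 0 passed in any of the 3 comparisons by limma, where 0.77%, 10.6% and 6.26% of all genes passed. The median changes of the list were -0.14 in Pit1dw/dw and 0.08 in Prop1df/df. Cdx1, Hoxb1, Stra8 and Lrat of this list were below the overall median of 4.37 in every pool. Such dim signals limit how large a fall could be measured. Cyp26a1, which degrades retinoic acid and is induced by it, changed by -0.44 (interval -1.11 to 0.23) and 0.19 (interval -0.48 to 0.85). Crabp2, which delivers retinoic acid to its receptors, changed by 0.33 and 0.68 (limma adjusted p = 0.768 and 0.0609).

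**Figure D4:**
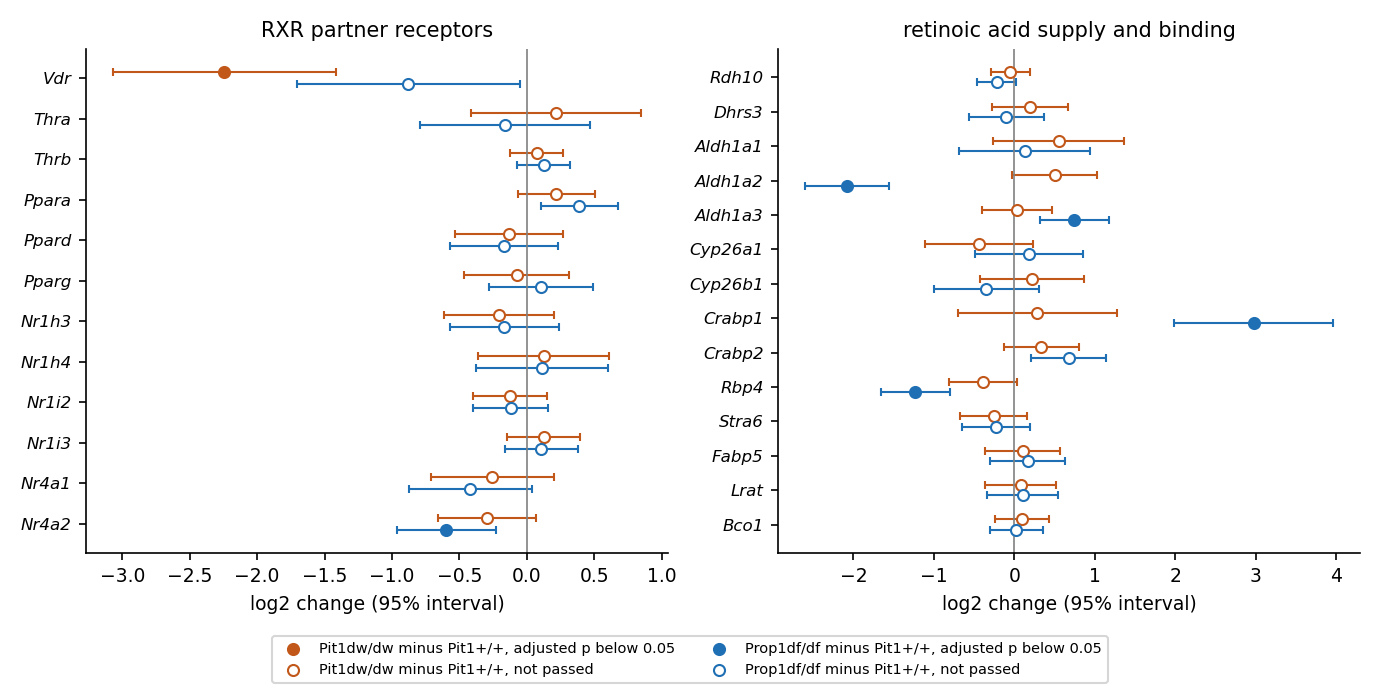
Log2 change (horizontal axes, limma estimate with 95% interval) of the receptors that pair with retinoid X receptors and of genes for retinoic acid supply and binding, in each mutant against Pit1+/+. Filled points passed an adjusted p of 0.05: Vdr at -2.24 in Pit1dw/dw, and Nr4a2, Aldh1a2, Aldh1a3, Crabp1 and Rbp4 in Prop1df/df.

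The genes whose levels over the 15 pools were most like Rxrg by Pearson r were Lgals7 (0.96), Pappa2 (0.95), Ghrhr (0.94), Shfl (0.94), Alg13 (0.94), Nptx1 (0.94), Padi2 (0.93), Trhr (0.92), Gpr135 (0.92) and Igsf1 (0.92). The r is a description over pools that share the genotype differences. Ghrhr, the receptor for growth hormone-releasing hormone, changed by -4.94 and -3.47, and Pappa2, a protease of insulin-like growth factor binding proteins, by -3.70 and -2.64. Lgals7, a galectin, changed by -1.63 and -1.41, and Igsf1, a membrane glycoprotein of the pituitary, by -1.69 and -2.04. By deviations from the group means the most alike genes were Tor1a (0.93), Rbmx2 (0.87), Sqstm1 (0.87), Prkd1 (0.86) and Psmd12 (0.86).

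The other receptor genes had different neighbours. Rxrb was most like Vps51 (0.98), Abcf1 (0.98) and Ndufs7 (0.98), and Rxra was most like Mdk (0.95), Natd1 (0.94) and Gpihbp1 (0.92). Rara was most like Abcc3 (0.92), Krt76 (0.87) and Lcn4 (0.87), Rarg like Rab3il1 (0.85), Arhgef25 (0.85) and Gm11627 (0.85), and Rarb like Zfp748 (0.81), Pla2g2f (0.80) and 4930509K18Rik (0.79). Of these, Abcc3, Krt76, Lcn4, Pla2g2f and 4930509K18Rik were below the overall median of the arrays in every pool, so they carry little signal. The neighbours are the highest r among all genes, a description with no test. Among the receptors themselves, the deviations of Rxra and Rxrb had an r of 0.75.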

How the data were processed

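RNA of 15 pools was measured on 1 array each, 5 pools per genotype, grouped by title. The authors deposited signals on a log2 scale, as judged from their range of 1.83 to 14.83, and the submitters' processing notes name RMA, a method that normalises arrays together by quantiles. The sources used here do not state its version or settings. The number of arrays limits the precision, since they hold no counts.

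The table holds 45101 probe sets, of which 64 are controls and were left out. The array annotation gives a single gene for 34945 of the remaining 45037, several for 932 and none for 9160. Probe sets with 1 name were reduced to 18193 genes by the highest mean. A model with 1 mean per group was fitted over the 15 arrays by limma 3.58.1 (R 4.3.3, functions lmFit and eBayes, two-sided), with Benjamini-Hochberg adjustment and a threshold of 0.05, after the script was tested on simulated data. A second fit covered every probe set. Differences of Rxrg from its paralogues were tested by exact two-sided permutation, adjusted over 15 tests. The text names the 6 receptors, Gh and Tshb, at most 4 genes that passed in each pathway list, the 10 genes most like Rxrg over all pools and the 5 by deviations from group means, and the 3 most like each other receptor. Trhr, Thra, Thrb, Prph, Cyp26a1 and Crabp2 were named as examples of their lists, with their values known.

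The members and lists were chosen with earlier results of these data known. Alternatives covered normalisation, probe set choice, filters, priors, array weights, covariates, the replicate block, and leaving out pools. The pool numbers were not taken as pairs, since correlations of deviations between same-numbered pools ran from -0.31 to 0.67 and the labels name no shared litter or day. The pools numbered 3 matched each other best in every comparison (r of 0.64, 0.67 and 0.51), and all of them were high in Prph. Whether they share a factor was not tested. Some items are not reported here.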

Additional observations from a re-analysis of the deposited data

Results flagged for a closer look

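In 4 of 57 groups of 5 pools, 27 of them of receptor probe sets, 1 pool lay far from the others. Chance gives about 1 in 20. The dim second probe set of Rarg (1419416_a_at) was at 3.27 in Pit1dw/dw pool 1, with the next value at 2.82. Vdr was at 6.62 in Pit1dw/dw pool 5, with the next at 5.03. Aldh1a3 was at 5.37 in Prop1df/df pool 4, with the next at 4.49. Prph was at 10.59 in Pit1+/+ pool 3, with the next at 3.74.

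Among Gh, Tshb and the named genes of the pathway lists, 7 differed between the mutants, where 6.26% of all genes did. Tshb and Nr4a2 did not pass. The pathway genes were named because they passed against Pit1+/+ in these same arrays. A difference between the mutants was made more likely by that choice, so the count says nothing of the lists. Values are Prop1df/df minus Pit1dw/dw in limma, with strain differing too. Of the genes named for likeness, Prkd1 also differed, by -1.215, and kept its call in all 25 alternatives. Gh differed by 3.36. Without the pools above 12 in Gh it differed by 0.79 (limma adjusted p = 0.669). Those pools were left out by their own Gh value, so a smaller difference was fixed in advance. The call of Gh also ended without Pit1dw/dw pool 2, 3 or 4 or Prop1df/df pool 1, 2 or 3 (2.89 to 3.44). Vdr differed by 1.36, a call that ended in 16 of 25 alternatives, including without Pit1dw/dw pool 1, 2, 3 or 4 or Prop1df/df pool 1, 3 or 5 (1.23 to 1.33). With the ganglion and bone covariates the difference of Vdr was 0.55 (adjusted p = 0.383), and with the mean of its 2 probe sets it was 0.87 (0.0865). Ncoa1 differed by -0.43, a call that ended in 12 of 25, including without Pit1dw/dw pool 2, 3, 4 or 5 or Prop1df/df pool 1, 3 or 5 (-0.43 to -0.39). Aldh1a2 differed by -2.58 and Crabp1 by 2.69, and both kept their calls in every alternative run. Rbp4 differed by -0.84, a call that ended in 5 of 25, among them leaving out Prop1df/df pool 5 (-0.73). Aldh1a3 differed by 0.71, a call that ended in 18 of 25, including without Pit1dw/dw pool 1, 2, 3 or 4 or Prop1df/df pool 1, 2, 4 or 5 (0.52 to 0.78).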

How the results depend on the processing

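For the 6 receptor genes, 18 results were recomputed under 438 alternatives, and 436 kept their direction where called and their side of the threshold. Rxrg passed in all 24 alternatives in Pit1dw/dw (log2 change -2.58 to -2.13, limma adjusted p 4.675e-05 to 0.00496) and in all 25 in Prop1df/df (-2.35 to -1.72, 0.000113 to 0.00289). Leaving out 1 pool gave -2.48 to -2.17 and -2.11 to -1.73. The 2 exceptions were Rxrb in Prop1df/df with array weights (-0.58) and Rarb in Prop1df/df with the ganglion and bone covariates (0.43). For the cause of each change named here, the cause was not tested.

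With the replicate block, Rxrg kept its changes (limma adjusted p = 0.000215 and 0.000113). The differences of Rxrg from Rara, Rarb, Rarg, Rxra and Rxrb were still -2.24, -2.40, -2.29, -2.47 and -2.34 in Pit1dw/dw and -2.12, -2.18, -2.02, -2.03 and -1.65 in Prop1df/df, but did not pass, since 5 pairs cannot go below 0.0625. Of same-numbered pools, 3 of 5 in Pit1dw/dw and 1 of 5 in Prop1df/df correlated best with their own number in Pit1+/+. Without the Prop1df/df pools above 12 in Gh, an alternative chosen after seeing the data like the Gapdh covariate, the differences in Prop1df/df were -2.79, -2.61, -2.38, -2.42 and -2.30 and did not pass (adjusted p = 0.0714), with 2 pools left. Leaving out 1 pool gave 0.54 to 0.91 for Rxrg against Rxrb between the mutants.

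The count of genes that passed moved more. In Pit1dw/dw it was 140, with 571 under array weights, 51 without the pools above 7 in Prph, and 83 to 161 without 1 pool. In Prop1df/df it was 1920, with 3350 over every probe set, 4297 under array weights, 890 without the pools above 12 in Gh, and 1401 to 3258 without 1 pool, the highest without Pit1+/+ pool 5. Between the mutants it was 1139, with 2254 over every probe set, 2390 under array weights, 711 with the ganglion and bone covariates, 746 without the pools above 7 in Prph and 503 without those above 12 in Gh. Signals near the dim end, as for Rara and for Rxrg in the mutants, limit how large a fall can be measured.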
